A study of Mus musculus with 12 samples.

Results

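The Runx family and its partner are described here as 4 of the 32285 genes counted, chosen by symbol: Runx1, Runx2, Runx3 and Cbfb. RUNX proteins are transcription factors that bind DNA through the runt domain, and CBFB is the partner subunit that does not contact DNA itself and strengthens their binding. RUNX1 is best known for the emergence of blood stem cells, RUNX2 for bone formation and RUNX3 for lymphocytes and sensory neurons. In the fetal gonad Runx1 is known as a gene of the supporting lineage, the cells that become Sertoli cells in the testis and granulosa cells in the ovary, and it is a known partner of FOXL2 in keeping granulosa cell identity.

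The study asked what the splice variants of WT1, a zinc finger protein made with (+KTS) or without (-KTS) the amino acids lysine, threonine and serine, do in gonads of both sexes. Single cells of mouse gonads were profiled around embryonic day 12, given as 23 ± 3 tail somites for every group. A droplet method was used that counts each captured RNA molecule once at its 3' end through a unique molecular identifier (UMI). There were 6 groups of 2 libraries each, 12 libraries in all. XX WT and XY WT were wild-type embryos of either sex. XX -KTS KO and XY -KTS KO were homozygous for an allele that cannot make the -KTS variant, and XX +KTS KO and XY +KTS KO were homozygous for an allele that cannot make the +KTS variant. All lines were kept on the mixed background B6CBAF1/JRj. Gonads of several embryos went into some -KTS KO libraries, so that their spread is not only that between embryos. Both are germline alleles, so that germ cells, blood and vessels carried them too.

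After filters on genes per cell, mitochondrial share and doublets, 76976 of 103730 barcodes were kept, 4665 to 8655 per library, with a median of 10595 to 19274 UMIs per cell. Of these, 66145 cells were gonadal somatic cells, meaning all clusters not named as germ, endothelial, blood, immune or mesonephric duct cells. They include 13715 cells of clusters that stayed unnamed, whatever genes led those clusters. Wt1, the altered gene, lay between 158 and 309 CPM (UMIs of the gene per 1000000 UMIs) in the gonadal somatic cells of every library, and these UMIs cannot tell the splice variants apart. Xist and the Y-linked genes matched the labelled sex in 12 of 12 libraries, and library pairs shared 2 to 32 barcodes. XY +KTS KO replicate 1 stood apart: 5 early-response genes (Fos, Jun, Junb, Egr1 and Btg2) summed to 2462 CPM there and to 297 to 685 CPM in the other 11 libraries. That library held 97.7% of the cells of cluster 10, a pre-granulosa-like cluster whose leading genes include Cst12 and Fos. XY +KTS KO replicate 2 held nearly all cells of cluster 26, led by Hox genes (98.8%), of cluster 32, led by Actc1 and Myog, and of the mesonephric duct-like cells. The XY WT libraries differed as well, with Amh at 187 and 69.8 CPM and Sox9 at 156 and 250 CPM.

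In GRCm38, Runx1 (ENSMUSG00000022952) occupies chr16:92601466-92826149 and Runx2 (ENSMUSG00000039153) chr17:44495987-44814797, both read from the minus strand. Runx3 (ENSMUSG00000070691) occupies chr4:135120652-135177990 and Cbfb (ENSMUSG00000031885) chr8:105170674-105217989, both read from the plus strand. Runx2 overlaps Supt3 and the antisense genes Runx2os1, Runx2os2 and Runx2os3. Whether this overlap bears on its few counts was not tested. The RUNX genes have a pair of promoters each, a distal and a proximal one. The distal promoters share a run of 18 bases that holds the RUNX motif ACCACA in 2 copies, and it is shown because the 3 RUNX genes share it and the Cbfb promoter window lacks it. In the 30-base windows below, from RefSeq for GRCm38.p6 and read 5′ to 3′ on the strand of the gene, the shared run is in capitals.
Runx1, chr16:92826025-92826054, minus strand: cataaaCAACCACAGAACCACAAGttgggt
Runx2, chr17:44814583-44814612, minus strand: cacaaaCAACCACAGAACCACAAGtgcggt
Runx3, chr4:135120503-135120532, plus strand: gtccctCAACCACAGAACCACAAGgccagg

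Counting the first transcribed base as 0, the run began at position 26 in Runx1, at 21 in Runx2 and at -136, before the start of transcription, in Runx3. It was found in 4 of 32817 promoter windows of 300 bases, those of the 3 genes and of the predicted gene Gm16225. The motif ACCACA, searched on both strands (TGTGGT on the other), occurred at least once in 16.8% of all these windows and at least 2 times in 1.81%. The distal windows of Runx1 and Runx3 held 2 copies and that of Runx2 held 3, and the proximal windows of Runx1 and Runx3 and the window of Cbfb held 0. The proximal Runx1 window held 1 copy of GCGGGGGCG, a motif that WT1 without KTS can bind, which stood in 2.91% of all windows. A match to letters is a description of the sequence and no evidence of binding. The 3' end counts do not tell which promoter made a transcript.

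The members differed widely in how often they were captured. Over all kept cells there were 74232 UMIs of Runx1, 23151 of Cbfb, 501 of Runx2 and 104 of Runx3. Captured 3' ends do not scale with transcript length, but capture efficiency can differ between genes. The members were left out of the clustering and of the marker lists, so that their levels by cluster did not shape the clusters. Because levels were summed over cells, fewer cells that express a gene and less RNA per cell cannot be told apart in the sums over gonadal somatic cells.

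**Figure D1:**
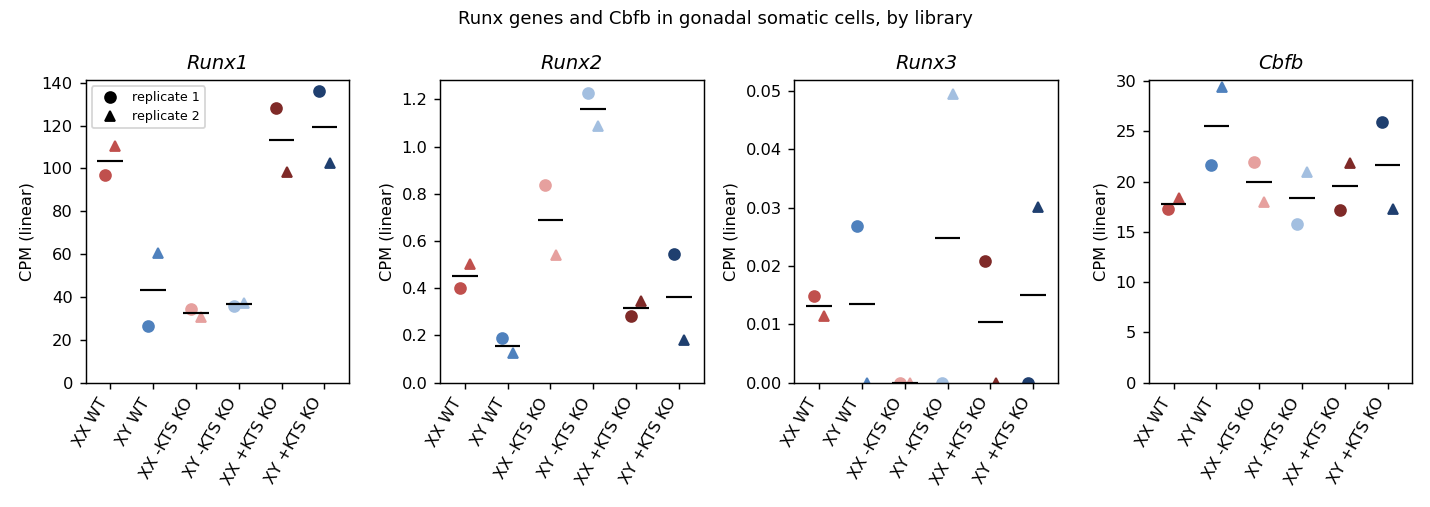
Level of each member in gonadal somatic cells (CPM, linear axis from 0) in each of the 12 libraries; circles are replicate 1, triangles replicate 2, and bars the mean of 2. Runx1 lies between 26.3 and 136 CPM and Cbfb between 15.8 and 29.5 CPM, while Runx2 stays at or below 1.23 CPM and Runx3 at or below 0.0495 CPM.

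Runx1 was a gene of the supporting lineage in these gonads, but it was not limited to it. Classes were called by markers as "-like" cells. Pre-supporting-like cells, which carry Wnt6, Gadd45g and Sprr2d, had the highest level, 218 ± 52.1 CPM (SD, n = 8 libraries with at least 20 such cells). These were the WT and +KTS KO libraries, so that the SD spans groups as well as replicates. No -KTS KO library had 20 cells named so, which by a marker list alone does not show that such cells were absent. Pre-granulosa-like cells lay between 137 and 242 CPM in the 6 WT and +KTS KO libraries that had them, within the pre-supporting-like range of 136 to 308 CPM. In the 4 -KTS KO libraries the cells called by the same list, nearly all of cluster 6, which has almost no Foxl2, were at 88.1 to 122 CPM. Sertoli-like cells, which occurred in the XY WT libraries alone among libraries with at least 20 of them, were at 35.2 and 69.1 CPM, below all of these values. Coelomic epithelium-like cells (27.7 ± 15.6 CPM, n = 12) and interstitial progenitor-like cells (24.4 ± 18.7 CPM, n = 12) had lower levels, which are given by group further on.

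Outside the gonadal soma, the highest Runx1 levels were in immune-like and platelet-like cells. Immune-like cells had 90.2 ± 39.3 CPM (n = 6 libraries of 22 to 28 such cells, with no WT library among them). They were at 54.2 to 85.2 CPM in the -KTS KO and at 140 and 138 CPM in the +KTS KO. This SD thus spans groups as well as replicates. The 20 platelet-like cells of XY +KTS KO replicate 2 had 116 CPM. Erythrocyte-like cells had 5.28 ± 3.97 CPM, endothelial-like cells 1.85 ± 1.21 CPM and germ cell-like cells 1.24 ± 1.10 CPM (each n = 12), and the values of these last classes overlapped. Endothelial-like and germ cell-like cells serve as the background for Runx1 in what follows. No class difference was tested, since the classes come from the same cells.

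**Figure D2:**
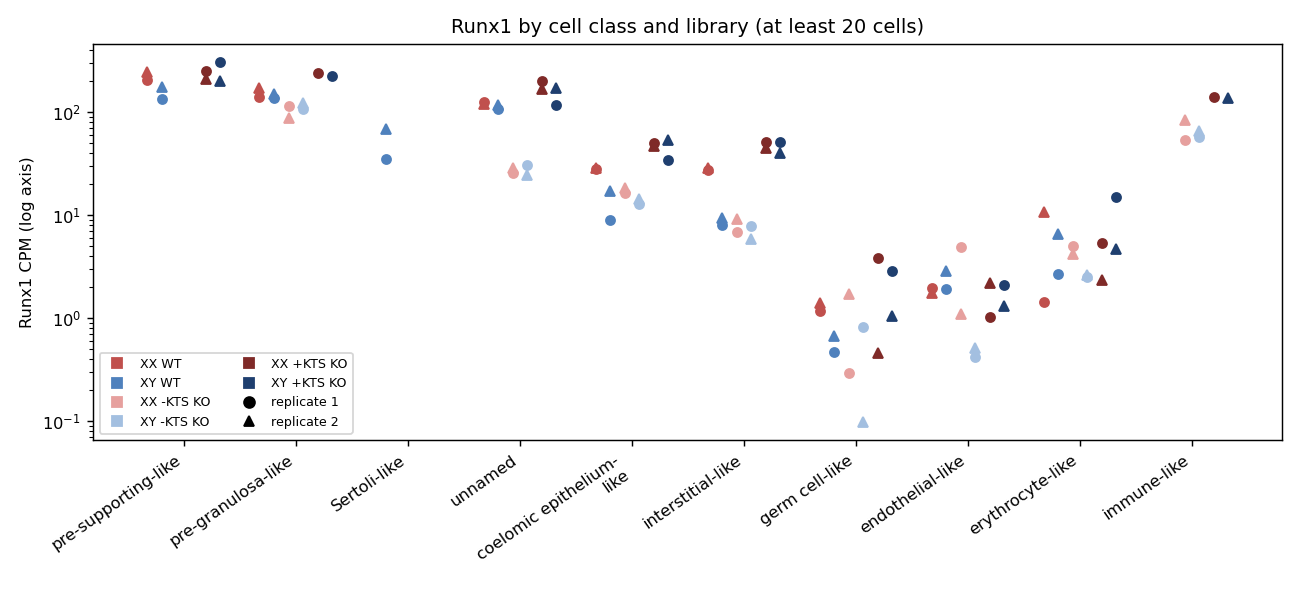
Runx1 level (CPM, log axis) by marker-defined class in every library with at least 20 cells of the class; colours are the 6 groups, circles replicate 1 and triangles replicate 2. In interstitial-like cells the +KTS KO libraries lie between 39.9 and 52.0 CPM and the -KTS KO libraries between 5.83 and 9.25 CPM, while endothelial-like cells stay at or below 4.96 CPM.

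By cluster, the order of Runx1 did not follow one marker list. Cluster 19, pre-supporting-like and led by Sprr2d and Fst, had the highest level at 244 CPM and cluster 10 had 228 CPM. Clusters 0 and 24, which carry Cyp11a1, Pnmt and Inha, came almost wholly from +KTS KO libraries and stayed unnamed, had 189 and 186 CPM. In cluster 0, 84.5% of cells had a Runx1 UMI at a median depth of 13220 UMIs, against 2.37% in the endothelial-like cluster 18 at 15561 UMIs. Cluster 3, the pre-granulosa-like cells of XX WT led by Fst and Col12a1, had 159 CPM. Cluster 14, an unnamed XY WT cluster led by Spp1 with Sox9 among its leading genes, had 125 CPM, against 51.3 CPM in the Sertoli-like cluster 12. Cluster 6, which came almost wholly from -KTS KO libraries, was led by Wfdc13, Wfdc10 and Cpa1 and had 111 CPM of Runx1. It carries the pre-granulosa name by its list, but its Foxl2 level was 0.816 CPM, against 35.2 CPM in cluster 3, so it is called here by its leading genes.

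Cbfb had another order of clusters than Runx1. It was highest in the Sertoli-like cluster 12 (31.997 CPM) and the endothelial-like cluster 27 (27.9 CPM), and lowest in the erythrocyte-like cluster 21 (0.318 CPM), a class whose RNA is mostly globin. In 35 clusters of at least 50 cells, the Pearson correlation of Runx1 with Cbfb was 0.11 on the scale of log2 (CPM + 1). The same measure was 0.83 for Runx1 with Wnt6, a pre-supporting gene, 0.82 with Cyp11a1, 0.75 with Foxl2 and 0.40 with Sox9. These values describe clusters that share libraries and depth, and no p is given for them.

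**Figure D3:**
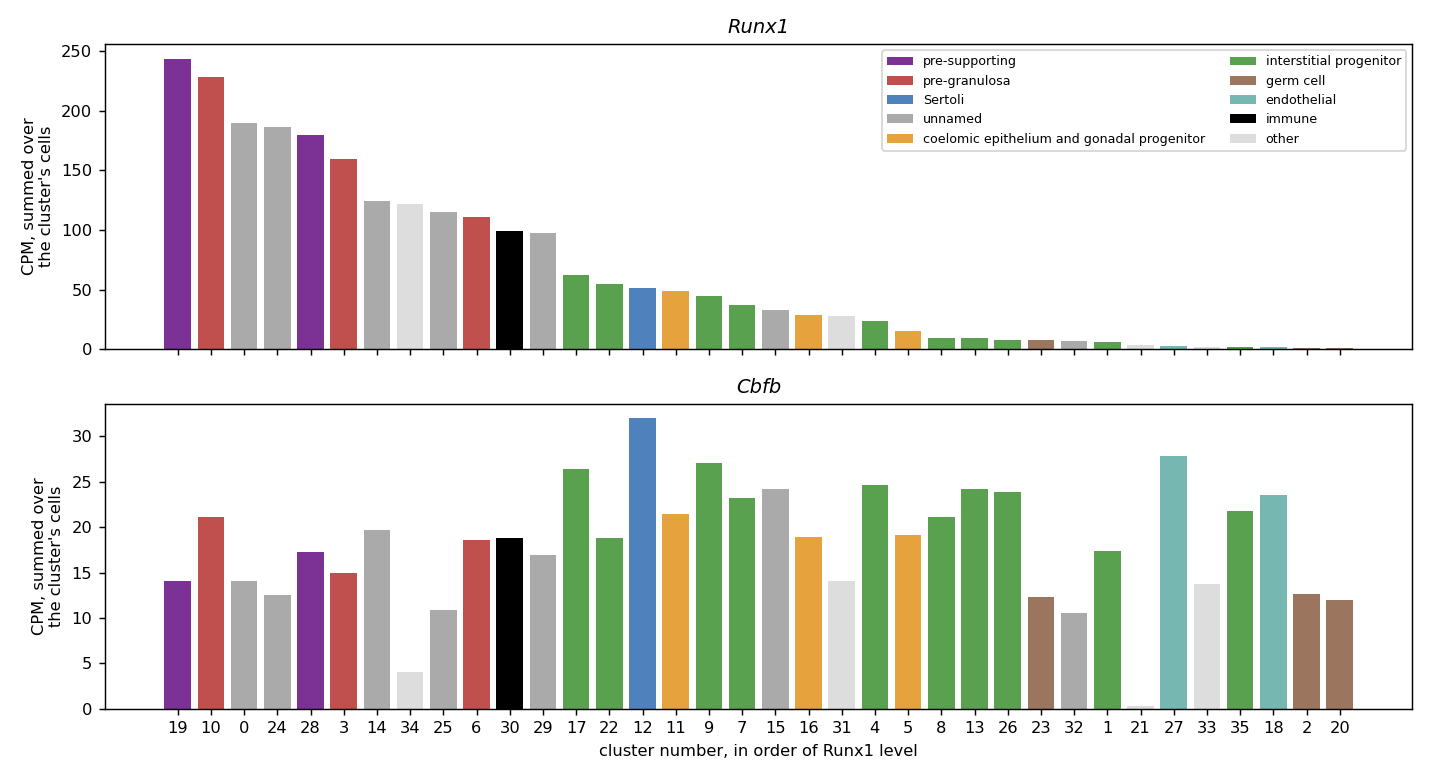
Runx1 and Cbfb levels (CPM summed over the cells of a cluster, bars from 0) in the 36 clusters, in the order of Runx1; colours are the marker-defined classes. Runx1 falls from 244 CPM in cluster 19 to 0.755 CPM in cluster 20, whereas Cbfb lies between 0.318 and 31.997 CPM with no matching order.

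The first comparison asks how the sexes differ in the wild type. In gonadal somatic cells Runx1 was at 96.7 and 110 CPM in the XX WT libraries and at 26.3 and 60.6 CPM in the XY WT libraries. Both XX libraries were above both XY libraries, and the XY libraries differed from each other by more than the XX libraries did. Runx1 was higher in XX by a log2 fold change of 1.203 (SE 0.29, adjusted p = 0.0257 by the quasi-likelihood test of edgeR, adjusted over all genes by the method of Benjamini and Hochberg). In this comparison, limited to autosomal genes, 13.1% of the genes tested passed the same threshold. The call was lost when XX WT replicate 1 (log2 1.27), XX WT replicate 2 (1.13) or XY WT replicate 1 (0.75) was left out, without replicate 1 of both groups (0.83) and with only the groups compared (1.19). Cbfb was at 17.3 and 18.4 CPM in XX WT and 21.6 and 29.5 CPM in XY WT, lower in both XX libraries, but its log2 difference of -0.58 (SE 0.20) did not pass (edgeR, adjusted p = 0.0834), although it did with DESeq2 (-0.61). Runx2, at 0.401 and 0.500 CPM against 0.188 and 0.125 CPM, did not pass either (log2 1.42, SE 0.51, edgeR, adjusted p = 0.0975).

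The next comparison asks what loss of the -KTS variant does to the family. In XX gonads Runx1 fell. It was at 34.5 and 30.5 CPM in XX -KTS KO, far below both XX WT libraries, with a log2 fold change of -1.61 (SE 0.30, edgeR, adjusted p = 0.00615), while 16.3% of all genes tested passed in this comparison. Without XX -KTS KO replicate 2 the log2 fold change was -1.52 and missed the threshold, as it did without replicate 1 (-1.78) or replicate 2 (-1.45) of both groups compared. Supporting-lineage cells, the Sertoli-, pre-granulosa- and pre-supporting-like classes, made up 50.9% and 46.2% of these cells in XX WT against 19.9% and 18.7% in XX -KTS KO, and their part in this fall was not tested. Cbfb, at 22.0 and 18.0 CPM, overlapped the XX WT values, and its log2 difference of 0.23 had an interval of 2 SE from -0.17 to 0.62. Runx2, at 0.838 and 0.543 CPM, lay above both XX WT libraries but did not pass (log2 0.68, edgeR, adjusted p = 0.358).

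In XY gonads without -KTS, Runx2 was the only tested member that passed over all gonadal somatic cells. Runx1 and Cbfb passed in parts of these cells, which are given further on. Runx2 was at 1.23 and 1.09 CPM in XY -KTS KO, the highest 2 libraries of the 12, against 0.188 and 0.125 CPM in XY WT. Runx2 rose by a log2 of 2.82 (SE 0.50, edgeR, adjusted p = 0.00353), from 88 and 88 UMIs against 14 and 8, in a comparison where 23.4% of all genes passed. The call was kept without each single library (log2 2.52 to 3.22) and lost without replicate 1 (3.11) or replicate 2 (2.62) of both groups compared. Runx1, at 35.9 and 37.2 CPM, lay between the XY WT libraries, and its log2 difference of -0.26 had an interval of 2 SE from -0.84 to 0.32; without XY WT replicate 2 it was 0.38. Cbfb, at 15.8 and 20.9 CPM, was below both XY WT libraries but did not pass (log2 -0.51, SE 0.20, edgeR, adjusted p = 0.0929), although it did with DESeq2 (-0.54). The difference between the sexes of the -KTS KO effect (XX minus XY, log2) was -1.35 for Runx1 and -2.14 for Runx2, and neither passed (edgeR, adjusted p = 0.115 and 0.127), in a test that 3.07% of genes passed. The difference for Runx1 passed without XY WT replicate 2 (-1.98), with DESeq2 (-1.33) and with no low-count filter (-1.35).

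The same question was asked of the +KTS variant. In XY gonads without it Runx1 rose. It was at 136 and 103 CPM in XY +KTS KO, above both XY WT libraries and near the level of XX WT, with a log2 fold change of 1.38 (SE 0.29, edgeR, adjusted p = 0.0162), beside 12.4% of all genes. The call was lost without XY +KTS KO replicate 1, the library with the high early-response genes, where the log2 fold change was 1.27, and whether those genes bear on Runx1 was not tested. It was also lost without replicate 1 of both groups compared (0.82) and with only the groups compared (1.37), and without XY WT replicate 1 it passed at 0.95. In XX +KTS KO Runx1 was at 128 and 98.1 CPM and overlapped XX WT (log2 0.18, interval of 2 SE from -0.40 to 0.75, edgeR, adjusted p = 0.834), where 4.99% of all genes passed, and without XX +KTS KO replicate 1 the log2 fold change was -0.08. The difference between the sexes (XX minus XY) was -1.21 for Runx1 and did not pass (edgeR, adjusted p = 0.136, with 3.82% of genes passing), but without XY WT replicate 2 it was -1.83 and passed. Cbfb in XY +KTS KO was at 25.9 and 17.3 CPM and in XX +KTS KO at 17.2 and 21.9 CPM, overlapping WT in both sexes (log2 -0.34 and 0.17). Runx2 lay at 0.545 and 0.181 CPM in XY and at 0.281 and 0.348 CPM in XX +KTS KO, and neither passed (log2 1.04 and -0.48). Without XY +KTS KO replicate 2, Runx2 in XY +KTS KO passed at a log2 of 1.60.

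**Figure D4:**
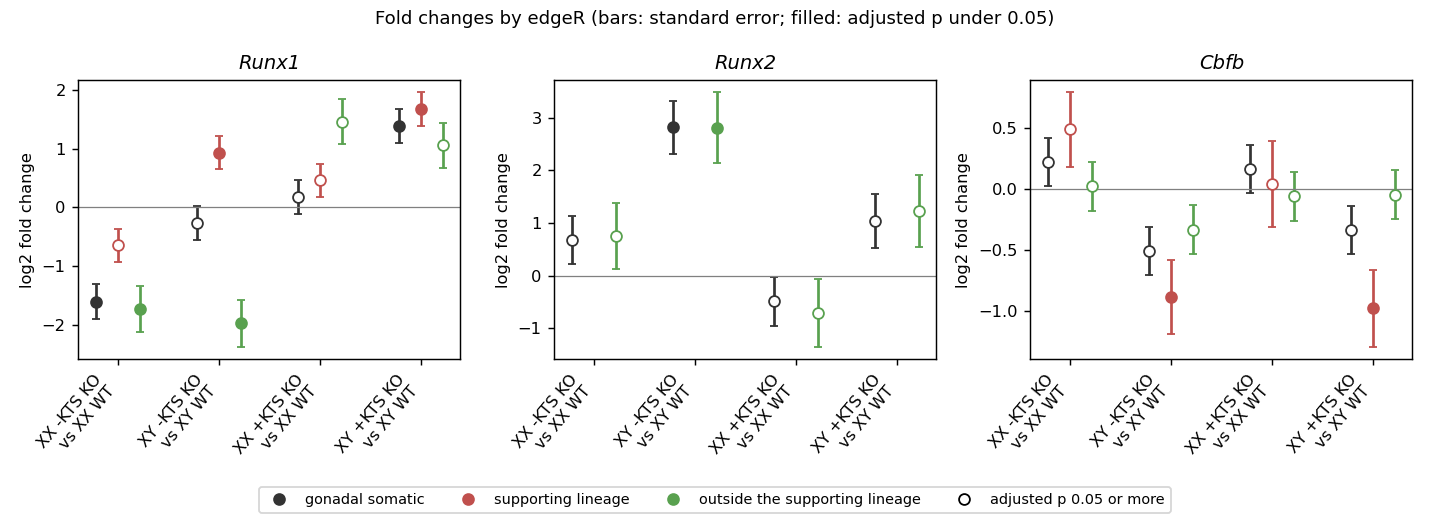
Log2 fold change of each mutant against the WT of its sex from edgeR for Runx1, Runx2 and Cbfb, in all gonadal somatic cells, in supporting-lineage cells and in those outside it; bars are the standard error and filled points have an adjusted p under 0.05. Runx1 in XX -KTS KO is at -1.61 in gonadal somatic cells and Runx2 in XY -KTS KO at 2.82; Runx2 was not tested in supporting-lineage cells.

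The mutants were also compared with each other, in comparisons that share the mutant libraries already described. Runx1 was lower in -KTS KO than in +KTS KO in XX (log2 -1.78, SE 0.30, edgeR, adjusted p = 0.00259) and in XY (log2 -1.64, SE 0.30, edgeR, adjusted p = 0.00372). All 4 -KTS KO libraries, at 30.5 to 37.2 CPM, were below all 4 +KTS KO libraries, at 98.1 to 136 CPM. Of all genes, 18.5% passed in the XX comparison and 21.6% in the XY one. Runx2 went the other way and was higher in XY -KTS KO than in XY +KTS KO (log2 1.77, SE 0.46, edgeR, adjusted p = 0.0217). This call was lost without XY -KTS KO replicate 1 (log2 1.66), XY -KTS KO replicate 2 (1.89) or XY +KTS KO replicate 2 (1.22), without replicate 2 of both groups compared (1.35), with only the groups compared (1.77) and with all kept cells (1.64). Without replicate 1 of both groups compared the Runx1 calls were lost in XX (-1.63) and XY (-1.53). In XX the log2 difference of Runx2 was 1.17 and did not pass (edgeR, adjusted p = 0.117), and Cbfb did not pass in either sex (log2 0.06 and -0.17).

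The groups also differed in level within cells that are not supporting cells, where no test was run. In interstitial progenitor-like cells, which carry Nr2f2, Pdgfra and Tcf21, Runx1 was at 27.5 and 28.7 CPM in XX WT and at 8.06 and 9.44 CPM in XY WT. It was at 6.94 and 9.25 CPM in XX -KTS KO and at 7.95 and 5.83 CPM in XY -KTS KO. The +KTS KO libraries had 52.0 and 45.3 CPM in XX and 51.7 and 39.9 CPM in XY. All 4 +KTS KO libraries thus lay above both XX WT libraries, which lay above the other 6. The endothelial-like background was 0.424 to 4.96 CPM (1.85 ± 1.21 CPM, n = 12), below every interstitial-like library. Its highest value, in XX -KTS KO replicate 1, came from 8 UMIs in 48 cells.

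In coelomic epithelium-like cells, which carry Upk3b and keratins, the +KTS KO libraries were again highest, at 49.99 and 47.6 CPM in XX and 34.7 and 53.9 CPM in XY. XX WT followed at 28.5 and 29.01 CPM. XX -KTS KO (16.5 and 18.4 CPM) lay above XY -KTS KO (13.0 and 14.4 CPM), and XY WT (8.97 and 17.2 CPM, from 56 and 164 cells) overlapped both. Different clusters made up this class in different groups: cluster 5 in the -KTS KO, cluster 16 in XX WT and cluster 11 in the +KTS KO. The interstitial-like class was likewise mostly clusters 1 and 13 in the -KTS KO and clusters 4 and 8 in XY WT. Clusters 7 and 9 held most of it in XX +KTS KO, and cluster 17 was almost wholly XY +KTS KO replicate 1.

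Gonadal somatic cells were also gated by 1 marker each, without the names of the clusters within them. Each cell was thinned to 5000 UMIs, which left out 442 to 1873 shallower gonadal somatic cells per group. Most were left out in XY +KTS KO (1873) and XX -KTS KO (1073). The XX -KTS KO libraries differed in make-up, with 23.8% of gonadal somatic cells in unnamed clusters in replicate 2 and 3.28% in replicate 1. Ungated, 32.1% and 33.7% of these cells had a Runx1 UMI in XX WT, 11.2% and 21.3% in XY WT, 10.9% to 12.5% in the -KTS KO and 33.1% to 41.3% in the +KTS KO. Among cells with a Foxl2 UMI, 54.8% and 58.4% had a Runx1 UMI in XX WT. The shares were 65.0% and 50.4% in the XX, 67.2% and 53.6% in the XY libraries of the +KTS KO. Endothelial-like cells thinned in the same way had a Runx1 UMI in 0 to 1.96% of cells per library, and germ cell-like cells in 0 to 1.35%. The Foxl2 gate held at least 20 cells in no -KTS KO library and in XY WT only in replicate 2, where 37 cells gave 51.4%.

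Amh is the Sertoli hormone gene. Cells with an Amh UMI had a Runx1 UMI in 15.2% (of 1409 cells) and 25.8% (of 644 cells) in XY WT. In XX +KTS KO the same gate gave 65.9% and 51.2%, and in XY +KTS KO 63.0% and 57.1%. Every +KTS KO library was thus above both XY WT libraries, as they were without the gate, although only 125 to 472 cells passed it there. Among cells with an Nr2f2 UMI, an interstitial marker, the shares were 22.2% and 23.9% in XX WT, 6.11% and 8.80% in XY WT, 5.23% to 7.57% in the -KTS KO and 23.3% to 36.3% in the +KTS KO. Without thinning, the shares in cells with an Amh UMI were 27.7% and 54.7% in XY WT, 86.6% and 85.5% in the XX, 83.6% and 83.9% in the XY libraries of the +KTS KO, with 0.917% to 4.49% in endothelial-like and 0.462% to 6.97% in germ cell-like cells.

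**Figure D5:**
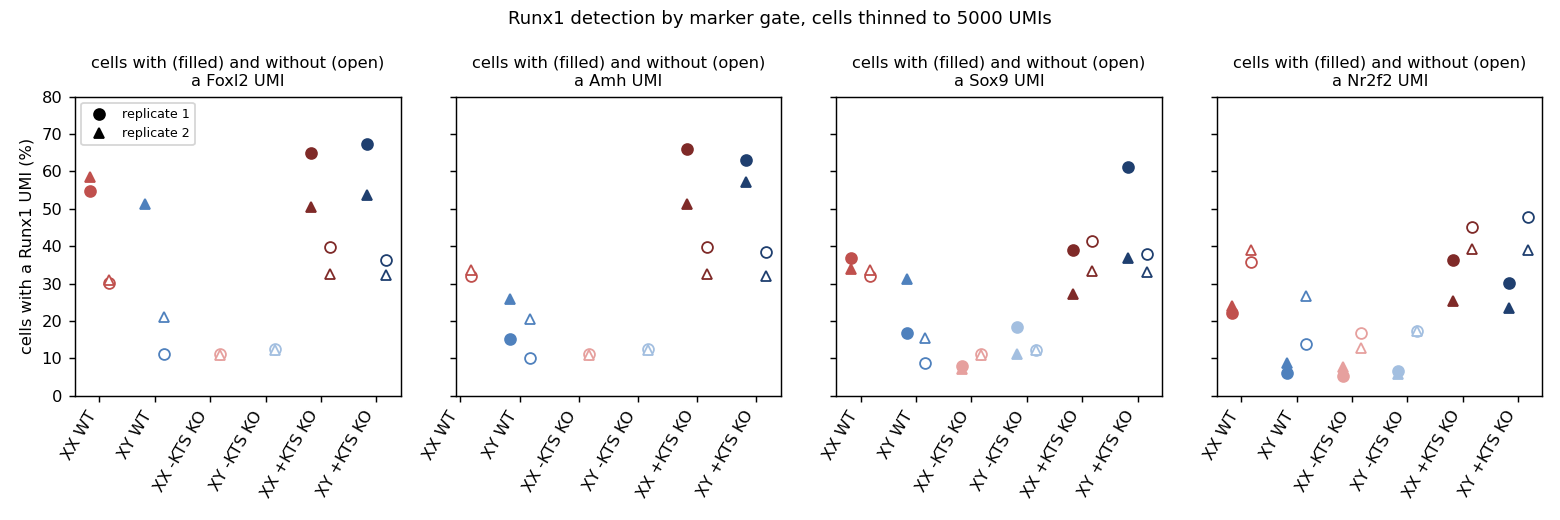
Share of gonadal somatic cells with a Runx1 UMI (percent, each cell thinned to 5000 UMIs) among cells with (filled) and without (open) a UMI of Foxl2, Amh, Sox9 or Nr2f2, by library; gates with fewer than 20 cells are left out. With an Amh UMI the XY WT libraries give 15.2% and 25.8% and the +KTS KO libraries 51.2% to 65.9%.

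Supporting-lineage cells, the Sertoli-, pre-granulosa- and pre-supporting-like classes together, numbered 16298, and they gave 64.4% to 81.7% of the gonadal Runx1 UMIs in the XX WT and -KTS KO libraries. In XX +KTS KO they gave 4.90% to 7.98%, while the unnamed clusters, clusters 0 and 24 among them, held 67.8% to 71.6% of the Runx1 UMIs there. In XY WT the lineage gave 38.6% and 43.2% and the unnamed clusters 42.1% and 49.8%. The XY +KTS KO libraries differed from each other, with 78.9% from the lineage and 2.25% from the unnamed clusters in replicate 1 and 5.25% and 71.2% in replicate 2. The cells compared are therefore mostly clusters 3 and 19 in XX WT, cluster 12 in XY WT, cluster 6 in the -KTS KO and clusters 10, 19 and 28 in the +KTS KO. In XY WT replicate 2, 96 pre-granulosa-like and 139 pre-supporting-like cells entered beside 1181 Sertoli-like cells and gave 164 and 320 of the 1674 Runx1 UMIs of the lineage. Only 100 cells of XX +KTS KO replicate 2 and 191 of XY +KTS KO replicate 2 entered. The cluster composition of each group and its Runx1 or Cbfb level cannot be told apart in these sums.

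Within the lineage Runx1 was at 154 and 186 CPM in XX WT and at 37.4 and 83.3 CPM in XY WT. XY -KTS KO had 109 and 123 CPM, above both XY WT libraries, and XX -KTS KO had 116 and 88.2 CPM, below both XX WT libraries. Runx1 was higher in XY -KTS KO by a log2 fold change of 0.93 (SE 0.28, edgeR, adjusted p = 0.0237), while 34.6% of all genes passed. The call was lost without XY WT replicate 1 (log2 0.52), XY -KTS KO replicate 1 (1.03) or XY -KTS KO replicate 2 (0.86), at cluster resolution 0.4 (0.53), with log-normalized clustering (0.72), with unnamed clusters added to the lineage (0.61) and with only the groups compared (0.96). The difference in XX did not pass (log2 -0.65, SE 0.28, edgeR, adjusted p = 0.142, with 16.7% of genes passing), but passed with no low-count filter (-0.67) and with only the groups compared (-0.65). The -KTS KO effects differed between the sexes by a log2 of -1.58 (XX minus XY, SE 0.39, edgeR, adjusted p = 0.0243), in a test added after the data were seen that 12.5% of genes passed, and that call was lost without any 1 of XX WT replicate 2 (-1.46), XX -KTS KO replicate 2 (-1.39) or XY -KTS KO replicate 2 (-1.51), with log-normalized clustering (-1.13) and with unnamed clusters added (-1.23).

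In XY +KTS KO the lineage had 230 and 201 CPM of Runx1, a log2 fold change of 1.67 over XY WT (SE 0.29, edgeR, adjusted p = 0.0016), beside 29.4% of genes passing. This call was kept without each single library and lost when cells were clustered on log-normalized values (log2 0.93). Leaving out single libraries, or a replicate number of both groups compared, gave a log2 of 1.23 to 2.30. In XX +KTS KO it had 254 and 216 CPM, above both XX WT libraries, which did not pass (log2 0.46, edgeR, adjusted p = 0.435, with 4.23% of genes passing) and turned to -0.61 with log-normalized clustering, and the difference between the sexes of -1.21 did not pass either (edgeR, adjusted p = 0.0775, with 10.0% of genes passing), although it did without XY WT replicate 2 (log2 -1.81), with DESeq2 (-1.18) and with no low-count filter (-1.25).

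Cbfb moved the other way in the XY supporting lineage. It was at 26.5 and 37.9 CPM in XY WT, 12.3 and 23.2 CPM in XY -KTS KO and 21.4 and 14.6 CPM in XY +KTS KO, with every mutant library below both XY WT libraries. It was lower by a log2 of -0.88 in XY -KTS KO (SE 0.30, edgeR, adjusted p = 0.0414) and of -0.97 in XY +KTS KO (SE 0.32, edgeR, adjusted p = 0.0381). Both calls were lost with doublets kept (log2 -0.54 and -0.57), log-normalized clustering (-0.61 and -0.68), resolution 0.4 (-0.61 and -0.70), only the groups compared (-0.85 and -0.96) and unnamed clusters added (-0.61 and -0.79), and the -KTS KO call also at resolution 1.2 (-0.84). Among single libraries, the -KTS KO call was lost without XY WT replicate 1 (log2 -1.05), XY WT replicate 2 (-0.68) or XY -KTS KO replicate 1 (-0.48), and the +KTS KO call without XY WT replicate 1 (-1.15), XY WT replicate 2 (-0.77), XY +KTS KO replicate 1 (-1.21) or XY +KTS KO replicate 2 (-0.83). In XX the values were 13.7 and 14.4 CPM in XX WT, 22.6 and 14.5 CPM in XX -KTS KO and 11.6 and 18.8 CPM in XX +KTS KO, and neither difference passed (log2 0.49 and 0.04). The difference between the sexes of the -KTS KO effect on Cbfb was 1.38 (SE 0.43) and did not pass (edgeR, adjusted p = 0.0585), but passed without XY -KTS KO replicate 2 (log2 1.88). With the replicate number as a block the +KTS KO call on Cbfb was lost as well (log2 -0.94).

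Outside the supporting lineage, the unnamed clusters included, Runx1 was at 39.4 and 44.0 CPM in XX WT and at 22.1 and 50.2 CPM in XY WT. It was at 9.80 and 13.97 CPM in XX -KTS KO and at 9.65 and 9.06 CPM in XY -KTS KO, below every other library. Runx1 fell in XX -KTS KO (log2 -1.73, SE 0.39, edgeR, adjusted p = 0.032, with 6.18% of genes passing) and in XY -KTS KO (log2 -1.98, SE 0.40, edgeR, adjusted p = 0.00955, with 16.3% of genes passing). The XX call was lost without any single XX library of these groups, at log2 -1.98 to -1.51, and with log-normalized clustering (-1.27). The XY call was lost without XY WT replicate 2 (log2 -1.36), XY -KTS KO replicate 1 (-2.03) or XY -KTS KO replicate 2 (-1.92), and with the unnamed clusters that scored highest on a supporting marker list (0, 14, 24 and 29) moved into the lineage the XY log2 fold change was -0.06. The XY call was also lost with doublets kept (-0.81) and at resolution 0.4 (-0.41), and clustering on log-normalized values turned it to 0.24. The difference between the sexes of the -KTS KO effect on Runx1 did not pass (log2 0.25, edgeR, adjusted p = 0.986), in a test that 0 of 16799 genes passed by edgeR, with 1423 at an unadjusted p under 0.05 and 232 genes called by DESeq2. Its sign was not stable: it was -0.36 without XY WT replicate 2, -0.01 without XX -KTS KO replicate 2, -0.94 with doublets kept, -1.50 with log-normalized clustering and -1.16 at cluster resolution 0.4. With the unnamed clusters moved into the lineage it was -1.45 and passed (edgeR, adjusted p = 0.0364).

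The +KTS KO libraries were higher outside the lineage, at 123 and 95.4 CPM in XX and 53.8 and 99.9 CPM in XY, with every one above every WT library. Neither difference passed (log2 1.46, edgeR, adjusted p = 0.0859 in XX and log2 1.06, adjusted p = 0.166 in XY, with 2.42% and 2.31% of genes passing), but the calls depended on the setting. The XX difference passed with DESeq2 (1.46), no low-count filter (1.49), only the groups compared (1.46), doublets kept (1.53), log-normalized clustering (1.66) and resolution 0.4 (1.97), and with the unnamed clusters moved into the lineage it was 0.53 and did not pass (edgeR, adjusted p = 0.167). The XY difference passed without XY +KTS KO replicate 1 (1.49), with no low-count filter (1.08) and, at log2 2.24 to 2.95, with doublets kept, log-normalized clustering, resolution 0.4 or the unnamed clusters moved. The difference between the sexes was 0.40 (edgeR, adjusted p = 0.805, with 0.339% of genes passing), and it too changed sign, to -0.21 without XY WT replicate 2, -0.03 without XY +KTS KO replicate 1, -0.89 with doublets kept, -1.27 with log-normalized clustering and -0.99 at resolution 0.4. With the unnamed clusters moved it was -1.70 and passed (edgeR, adjusted p = 0.0162). Runx2 outside the lineage rose in XY -KTS KO by a log2 of 2.81 (SE 0.67, edgeR, adjusted p = 0.0203), a call lost without any single XY library of these groups (log2 2.505 to 3.22). Cbfb passed in none of the 4 comparisons outside the lineage, at log2 -0.33 to 0.03.

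Runx2 UMIs came mostly from interstitial progenitor-like cells, 325 of the 485 in gonadal somatic cells. There Runx2 was at 2.06 and 1.77 CPM in XY -KTS KO, from 75 and 69 UMIs, and at 1.16 and 1.01 CPM in XX -KTS KO, from 53 and 26 UMIs. XY WT had 0.195 and 0.230 CPM from 9 and 6 UMIs, and XX WT had 0.414 and 0.687 CPM from 8 and 18 UMIs. The +KTS KO libraries lay at 0.208 to 0.673 CPM, so that all 4 -KTS KO libraries were above the other 8. Cluster 1, an interstitial-like cluster of the -KTS KO led by Sfrp2, Ecm1 and Twist1, alone held 175 Runx2 UMIs, and 2.21% of its cells had one. The supporting lineage held 47 Runx2 UMIs in 16298 cells and endothelial-like cells 2 in 2115 cells.

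Runx3 did not pass the filter on low counts in any cell set and was not tested. Of its 104 UMIs, 46 (44.2%) were in the 228 immune-like cells, which carry the macrophage genes C1qa, C1qb and Csf1r, and 44 (42.3%) were in 7098 germ cell-like cells. The immune-like cluster had 12.7 CPM of Runx3. The germ cell-like cluster 20, led by Tuba3a, Rhox6 and Sox2, had 0.369 CPM, and 1.60% of its cells had a Runx3 UMI at a median of 44374 UMIs per cell. Gonadal somatic cells held 13 Runx3 UMIs in 66145 cells, with 0 to 4 per library and 0 in 6 libraries. Interstitial-like cells gave 8 of the Runx3 UMIs. The immune-like cluster also had 99.0 CPM of Runx1, with Cbfb at 18.8 CPM and Runx2 at 2.21 CPM from 8 UMIs.

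Other proteins are known to act with RUNX factors. Of 18 such partners tested in gonadal somatic cells, 2 were higher and 4 lower in XX -KTS KO, and 2 were higher and 5 lower in XY -KTS KO (edgeR). Over all genes tested in these cells the -KTS KO gave 16.3% passing for XX and 23.4% for XY, the +KTS KO 4.99% for XX and 12.4% for XY, and XX WT against XY WT 13.1%. Here and in the next paragraphs, genes under 20 CPM are named because 5 or fewer were called, a choice made once the values were known. The partners had list medians of -0.19 and -0.04 on the log2 scale in XX and XY -KTS KO against 0.01 and 0.02 over all genes. Tle4, a corepressor that binds the C terminus of RUNX proteins, averaged 128 ± 47.7 CPM in XX -KTS KO against 55.7 ± 1.13 CPM in XX WT (n = 2 libraries each, log2 1.26, SE 0.22, edgeR, adjusted p = 0.00481). Wwtr1, which codes for the coactivator TAZ, fell by a log2 of 1.47 in XX (SE 0.23, edgeR, adjusted p = 0.00292), and Tle5, a short member of the same corepressor family, fell by 0.66. In XY -KTS KO Tle4 rose (log2 0.91), and Hipk2, a kinase that can phosphorylate RUNX1, fell (log2 -1.33), as did Wwtr1 (log2 -0.86). Runx1t1, a corepressor gene known from its fusion with RUNX1 in leukaemia, rose in both sexes (log2 1.60 and 2.33), and Cbfa2t3 of the same family (log2 -1.84 and -3.81) and Tle2 (log2 -1.09 and -0.90) fell in both. In the +KTS KO 2 partners were higher in XX, Cbfa2t3 (log2 1.80) and Tle2 (log2 0.70), and 1 in XY, Tle2 (log2 1.02), and 0 were lower, with medians of -0.06 and 0.13 against 0.00 and 0.05. Between XX WT and XY WT 1 of the 18 passed, Wwtr1, higher in XX by a log2 of 0.86, with a median of 0.10 against 0.02.

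Of 13 blood genes that act with RUNX1, 10 were tested: 4 were higher in XX -KTS KO, Gata2, Lmo2, Fli1 and Gfi1, and 3 were higher and 1 lower in XY -KTS KO, Lmo2, Gfi1 and Itga2b against Ets1, with medians of 1.76 and 0.71 against 0.01 and 0.02 over all genes, of which 16.3% and 23.4% passed. These risers were low, and all but Gata2 lay below 3 CPM (Gata2 10.5 ± 9.77 CPM, Lmo2 1.19 ± 0.305 CPM in XX -KTS KO). Ets1, an activating partner of RUNX1, fell from 49.1 ± 7.09 CPM in XY WT to 20.2 ± 0.111 CPM in the XY -KTS KO (log2 -1.31, SE 0.25, edgeR, adjusted p = 0.00478). In the +KTS KO 0 passed in XX and 1, Itga2b, in XY (log2 1.13), with medians of -0.24 and -0.30, where 4.99% and 12.4% of all genes passed. Within the supporting lineage 7 of these genes were tested, and the median in XY had the opposite sign: 2 were higher and 4 lower in XY -KTS KO (median -1.99, with 34.6% of all genes passing) and 1 was higher in XX -KTS KO (median 0.03, with 16.7% passing). Between the WT sexes 1 was higher in XX (Itga2b) and 2 were lower (Ets1 and Fli1), with a median of -0.54 against 0.02 and 13.1% of all genes passing. The 6 immune markers summed to 0.119 to 0.578 CPM and the 6 endothelial markers to 9.63 to 26.3 CPM in gonadal somatic cells, and their part in these values was not tested.

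Of 10 skeletal genes, most of them known to lie downstream of RUNX2, 6 were tested. In XX -KTS KO 3 were higher and 0 lower, and in XY -KTS KO 2 were higher, Col1a1 and Ibsp, and 2 lower, Spp1 and Alpl, with medians of 0.78 and 0.25, where 16.3% and 23.4% of all genes passed. Col1a1, a fibrillar collagen chain, rose from 11.2 ± 0.717 CPM in XY WT to 151 ± 82.4 CPM in the XY -KTS KO (log2 3.70, SE 0.50, edgeR, adjusted p = 0.000873). Ibsp, bone sialoprotein, rose with it in both sexes (log2 4.93 in XX and 3.65 in XY), at 12.4 ± 3.64 and 12.6 ± 4.87 CPM. Spp1, osteopontin, went opposite ways: it rose in XX (log2 1.24) and fell in XY (log2 -1.38), where XY WT had 368 ± 73.1 CPM and Spp1 led cluster 14. In the +KTS KO 0 passed in XX and 1 was higher and 2 lower in XY (Col1a1 at log2 2.29, Spp1 at -6.04 and Ibsp at -2.75), where 4.99% and 12.4% of all genes passed. Between the WT sexes 1 was higher in XX (Col1a1) and 1 lower (Spp1), with a median of -1.30 and 13.1% of all genes passing.

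Genes of the supporting lineage were counted in the same sums over all gonadal somatic cells, not within a class. The shares of all genes passing were 16.3% in XX and 23.4% in XY -KTS KO, 4.99% in XX and 12.4% in XY +KTS KO and 13.1% between the WT sexes, and the medians over all genes lay between 0.00 and 0.05. Of 11 pre-granulosa genes, 0 were higher and 3 lower in XX -KTS KO (median -1.05), Foxl2, Fst and Cdkn1b, with Foxl2, a transcription factor of granulosa cells, at 0.313 ± 0.0528 CPM against 21.7 ± 3.16 CPM (log2 -6.06, SE 0.78, edgeR, adjusted p = 0.00106). In XY -KTS KO 4 were higher, Wnt4, Rspo1, Cdkn1b and Bmp2, and 1 lower, Foxl2 (median 1.35). In XX +KTS KO 0 were higher and 3 lower, Lgr5, Bmp2 and Cdkn1b (median -1.45), and in XY +KTS KO 5 were higher, Foxl2, Irx3, Wnt4, Rspo1 and Cdkn1b, and 1 lower, Lgr5 (median 1.88). Fst did not pass in XX +KTS KO, although it was at 37.4 and 8.28 CPM there against 524 and 481 CPM in XX WT. Between XX WT and XY WT 7 were higher in XX and 0 lower (median 2.24). Of 4 pre-supporting genes, all 4 were lower in XX -KTS KO (median -2.81) and 2 were lower in XY -KTS KO, Wnt6 and Nr0b1 (median -1.80). In the +KTS KO 0 passed in XX and 1, Wnt6, was higher in XY, and between the WT sexes 1 of 3 tested, Sprr2d, was higher in XX. Of 7 Sertoli genes, 7 were lower in XX WT than XY WT (median -5.12), 6 were lower in XY -KTS KO (median -7.85) and 6 in XY +KTS KO (median -3.23). In XX -KTS KO 1 Sertoli gene was higher, Mro, and 3 were lower, Dhh, Cst9 and Aard, and in XX +KTS KO 2 were higher, Amh (log2 5.37) and Dhh (log2 3.74).

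Runx1 can be set beside these lists. In XY -KTS KO it lay between the WT libraries while 2 of 4 pre-supporting genes and 6 of 7 Sertoli genes fell and 4 of 11 pre-granulosa genes rose. In that comparison 23.4% of all genes passed. Within the supporting lineage, where Runx1 was higher in XY -KTS KO (log2 0.93), 0 of 4 pre-supporting genes passed, 6 of 7 Sertoli genes were lower and 7 of 11 pre-granulosa genes were higher and 1 lower, with 34.6% of all genes passing. In XX +KTS KO, where 3 of 11 pre-granulosa genes passed as lower and 4.99% of all genes passed, Runx1 overlapped XX WT. No test compared Runx1 with a list.

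The genes whose levels were most like each member are given as a description, with no p. Over the 12 libraries (gonadal somatic cells, log2 of CPM + 1), Runx1 was most like Sp3, Kcnt1, Zfp703, Acadm and Gtf2a1, each with a Pearson r of 0.98. Cbfb was most like Lats2 (0.93), Rbms1 (0.92), Scaf11 (0.91), Lmnb1 (0.90) and Cdc25a (0.89), and Runx2 most like Nkain4 (0.96), Rad51ap2 (0.95), Mylip, Itm2a (each 0.94) and Vgll4 (0.93). For Runx3, whose somatic UMIs number 13, the highest were Prim2 (0.68), Irak1bp1 (0.64), Prelid2 (0.61), Ndufa6 (0.58) and Hnrnph3 (0.56). Libraries share groups and depth, so that many genes that differ between the genotypes resemble each other in this way.

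Over 35 clusters the likest genes were others. For Runx1 they were Zfp672 and Prcd (each 0.91), Akr1cl and 6030407O03Rik (each 0.90) and Lgals7 (0.89). For Cbfb they were Ppp2r2a and Dnttip1 (each 0.89) and Mta2, Nsmce2 and Bag5 (each 0.88), and for Runx2, with 501 UMIs, they included Maf (0.75), Otulinl (0.74) and Lsp1 (0.72). For Runx3 they were Trem2 and Adap2 (each 0.99) and Gpr34, Apobec1 and Tifab (each 0.98). Trem2 is a known macrophage receptor gene. The immune-like class had the highest Runx3 level, and its part in these correlations was not tested. No gene was shared between the libraries' and the clusters' lists of any member. Lists this short, drawn from all genes compared, would rarely share a gene by chance, so no conclusion is drawn from this.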

How the data were processed

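Gonads were dissociated with trypsin and loaded on a 10x Genomics 3' kit, which the labels give as v2 and the study's methods as v3. The authors aligned reads to mm10 with Cell Ranger 6.0 and deposited matrices of UMI counts per gene and cell, which are raw counts with no normalization. From these counts, barcodes with 1000 or more genes and a mitochondrial share of no more than 10% were kept, and doublets scored by Scanpy 1.11.5 were removed at a rate of 0.8% per 1000 barcodes. Cells were clustered with Seurat 5.3.0 and sctransform 0.4.2 (3000 variable genes without the members, 50 components, 20 neighbours, resolution 0.8) in R 4.3.3, and clusters were named from marker lists with at least 3 detected markers. UMIs were summed per library and cell set and tested with edgeR 4.0.16 (quasi-likelihood test, TMM, filterByExpr, 6 group means over all 12 libraries, Benjamini-Hochberg, threshold 0.05). The SE was derived from the fold change and F. Replicates are separate libraries. The p-values use a spread estimated over all 12 libraries in their 6 groups, not that of the groups compared alone. A group whose 2 libraries differ more than others is thus not judged by its own spread. For pooled gonads the spread is not only that between embryos.

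The scripts were tested on simulated data. The members and gene lists were chosen with earlier results of these data known. Named were the members everywhere, the 5 genes most like each member (Pearson r) over libraries and over clusters of at least 50 cells, and of each list up to 2 rises and 2 falls per comparison with at least 20 CPM in the higher group. Replicate numbers did not pair the libraries across all groups: of 15 pairs of groups, 7 had deviations correlated above 0.1 (lowest -0.44, median 0.05, highest 0.52), among them all pairs of XX WT, XY WT and XY -KTS KO (0.30 to 0.52). Alternatives were DESeq2 1.42.0, its size factors, no low-count filter, only the compared groups, a replicate block, all kept cells, doublets kept, log-normalization, resolutions 0.4 and 1.2 and leaving out libraries. Unnamed clusters added to the lineage, shallow clusters or clusters 26, 32 and 35 left out, single libraries left out, and sex-difference tests inside and outside the lineage were chosen after seeing the data. Of the gene identifiers, 32158 of 32285 matched the annotation (GENCODE M21, GRCm38). Some genes of the list most like Runx2 over clusters are not reported here.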

Additional observations from a re-analysis of the deposited data

Results flagged for a closer look

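In supporting-lineage cells, the effect of the -KTS KO on Runx1 differed between the sexes by a log2 of -1.58 (XX minus XY, SE 0.39, edgeR, adjusted p = 0.0243). It was singled out because the test of the difference itself passed, in a test added after the data were seen that 12.5% of genes passed. The call was lost without replicate 1 of the WT and -KTS KO groups of both sexes (-1.60), without XX WT replicate 2 (-1.46), XX -KTS KO replicate 2 (-1.39) or XY -KTS KO replicate 2 (-1.51), with clustering on log-normalized values (-1.13) and with unnamed clusters added to the lineage (-1.23). Both XX -KTS KO libraries lay below both XX WT libraries and both XY -KTS KO libraries above both XY WT libraries. The cells compared were mostly cluster 6 in the -KTS KO, clusters 3 and 19 in XX WT and cluster 12 in XY WT, with 96 pre-granulosa-like and 139 pre-supporting-like cells besides in XY WT replicate 2, and the part of this difference in clusters was not tested. In all gonadal somatic cells the same difference was -1.35 and did not pass, and outside the lineage it was 0.25 and did not pass. The value outside turned to -0.94 with doublets kept, -1.50 with log-normalized clustering, -1.16 at resolution 0.4 and -1.45 with unnamed clusters moved into the lineage, where it passed (edgeR, adjusted p = 0.0364).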

How the results depend on the processing

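Of 1030 alternative values of 57 tested results, 871 kept their direction and their side of the threshold, 78 lost the call, 32 gained it and 49 changed sign, and the cause was not tested. The loss of Runx1 in XX -KTS KO and the rise of Runx2 in XY -KTS KO over all gonadal somatic cells kept their call under every alternative that left out no library. Comparisons inside and outside the lineage depend on which clusters are named. Depth limits Runx2 (501 UMIs) and Runx3 (104 UMIs).

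In all gonadal somatic cells the log2 values that changed were as follows. With DESeq2, Cbfb XY -KTS KO vs XY WT (-0.54), Cbfb XX WT vs XY WT (-0.61), Runx1 sex difference of the -KTS KO effect (-1.33) passed. With all kept cells, Runx2 XY -KTS KO vs XY +KTS KO (1.64) lost its call, and Cbfb XX -KTS KO vs XX +KTS KO (-0.064) changed sign. With no low-count filter, Runx1 sex difference of the -KTS KO effect (-1.35) passed. With only the groups compared, Runx1 XY +KTS KO vs XY WT (1.37), Runx1 XX WT vs XY WT (1.19), Runx2 XY -KTS KO vs XY +KTS KO (1.77) lost its call.

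In supporting-lineage cells the log2 values that changed were as follows. With DESeq2, Cbfb sex difference of the -KTS KO effect (1.38), Runx1 sex difference of the +KTS KO effect (-1.18) passed. With doublets kept, Cbfb XY -KTS KO vs XY WT (-0.54), Cbfb XY +KTS KO vs XY WT (-0.57) lost its call. With log-normalized clustering, Runx1 XY -KTS KO vs XY WT (0.72), Cbfb XY -KTS KO vs XY WT (-0.61), Runx1 XY +KTS KO vs XY WT (0.93), Cbfb XY +KTS KO vs XY WT (-0.68), Runx1 sex difference of the -KTS KO effect (-1.13) lost its call, and Runx1 XX +KTS KO vs XX WT (-0.61) changed sign. With no low-count filter, Runx1 XX -KTS KO vs XX WT (-0.67), Cbfb sex difference of the -KTS KO effect (1.33), Runx1 sex difference of the +KTS KO effect (-1.25), Cbfb sex difference of the +KTS KO effect (0.98) passed. With only the groups compared, Runx1 XY -KTS KO vs XY WT (0.96), Cbfb XY -KTS KO vs XY WT (-0.85), Cbfb XY +KTS KO vs XY WT (-0.96) lost its call, and Runx1 XX -KTS KO vs XX WT (-0.65) passed. With replicate block, Cbfb XY +KTS KO vs XY WT (-0.94) lost its call. With resolution 0.4, Runx1 XY -KTS KO vs XY WT (0.53), Cbfb XY -KTS KO vs XY WT (-0.61), Cbfb XY +KTS KO vs XY WT (-0.70) lost its call. With resolution 1.2, Cbfb XY -KTS KO vs XY WT (-0.84) lost its call. With unnamed clusters added to the lineage, Runx1 XY -KTS KO vs XY WT (0.61), Cbfb XY -KTS KO vs XY WT (-0.61), Cbfb XY +KTS KO vs XY WT (-0.79), Runx1 sex difference of the -KTS KO effect (-1.23) lost its call.

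Outside the supporting lineage the log2 values that changed were as follows. With DESeq2, Runx1 XX +KTS KO vs XX WT (1.46) passed, and Cbfb sex difference of the +KTS KO effect (0.014) changed sign. With doublets kept, Runx1 XY -KTS KO vs XY WT (-0.81) lost its call, and Runx1 XX +KTS KO vs XX WT (1.53), Runx1 XY +KTS KO vs XY WT (2.42) passed, and Runx1 sex difference of the -KTS KO effect (-0.94), Runx1 sex difference of the +KTS KO effect (-0.89), Cbfb sex difference of the +KTS KO effect (0.077) changed sign. With log-normalized clustering, Runx1 XX -KTS KO vs XX WT (-1.27) lost its call, and Runx1 XX +KTS KO vs XX WT (1.66), Runx1 XY +KTS KO vs XY WT (2.92) passed, and Cbfb XX -KTS KO vs XX WT (-0.032), Runx1 XY -KTS KO vs XY WT (0.24), Runx1 sex difference of the -KTS KO effect (-1.50), Runx1 sex difference of the +KTS KO effect (-1.27), Cbfb sex difference of the +KTS KO effect (0.013) changed sign. With RLE factors, Cbfb sex difference of the +KTS KO effect (0.013) changed sign. With no low-count filter, Runx1 XX +KTS KO vs XX WT (1.49), Runx1 XY +KTS KO vs XY WT (1.08) passed. With only the groups compared, Runx1 XX +KTS KO vs XX WT (1.46) passed. With resolution 0.4, Runx1 XY -KTS KO vs XY WT (-0.41) lost its call, and Runx1 XX +KTS KO vs XX WT (1.97), Runx1 XY +KTS KO vs XY WT (2.95) passed, and Cbfb XX -KTS KO vs XX WT (-0.080), Runx1 sex difference of the -KTS KO effect (-1.16), Runx1 sex difference of the +KTS KO effect (-0.99) changed sign. With unnamed clusters added to the lineage, Runx1 XY -KTS KO vs XY WT (-0.057) lost its call, and Runx1 XY +KTS KO vs XY WT (2.24) passed, and Cbfb XX -KTS KO vs XX WT (-0.0056), Cbfb XX +KTS KO vs XX WT (0.19), Runx1 sex difference of the -KTS KO effect (-1.45), Runx1 sex difference of the +KTS KO effect (-1.70), Cbfb sex difference of the +KTS KO effect (0.21) changed sign, and both values of Runx1 passed.

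Leaving out 1 library, or 1 replicate number in the groups compared, changed a call or a sign in these log2 ranges. For Runx1 in all gonadal somatic cells the range was -0.14 to 0.46 (XX +KTS KO vs XX WT), -2.01 to -1.53 (XX -KTS KO vs XX +KTS KO), -1.78 to -1.45 (XX -KTS KO vs XX WT), 0.75 to 1.83 (XX WT vs XY WT), 0.82 to 2.11 (XY +KTS KO vs XY WT), -1.76 to -1.53 (XY -KTS KO vs XY +KTS KO), -0.70 to 0.38 (XY -KTS KO vs XY WT), -1.83 to -0.77 (sex difference of the +KTS KO effect), -1.98 to -0.91 (sex difference of the -KTS KO effect). For Runx2 in all gonadal somatic cells the range was 0.19 to 1.60 (XY +KTS KO vs XY WT), 1.22 to 2.62 (XY -KTS KO vs XY +KTS KO), 2.52 to 3.22 (XY -KTS KO vs XY WT). For Cbfb in all gonadal somatic cells the range was -0.23 to 0.35 (XX -KTS KO vs XX +KTS KO), -0.53 to 0.21 (XY -KTS KO vs XY +KTS KO). For Runx1 in the lineage the range was 0.52 to 1.52 (XY -KTS KO vs XY WT), -1.81 to -0.80 (sex difference of the +KTS KO effect), -2.17 to -1.16 (sex difference of the -KTS KO effect). For Cbfb in the lineage the range was -0.26 to 0.37 (XX +KTS KO vs XX WT), -1.41 to -0.62 (XY +KTS KO vs XY WT), -1.39 to -0.48 (XY -KTS KO vs XY WT), 0.75 to 1.99 (sex difference of the -KTS KO effect). For Runx1 outside it the range was -1.98 to -1.51 (XX -KTS KO vs XX WT), 0.43 to 1.67 (XY +KTS KO vs XY WT), -2.47 to -1.30 (XY -KTS KO vs XY WT), -0.21 to 1.03 (sex difference of the +KTS KO effect), -0.63 to 0.90 (sex difference of the -KTS KO effect). For Runx2 outside it the range was -0.071 to 1.64 (XX -KTS KO vs XX WT), -0.13 to 2.00 (XY +KTS KO vs XY WT), 2.505 to 3.22 (XY -KTS KO vs XY WT), -2.71 to -0.58 (sex difference of the +KTS KO effect). For Cbfb outside it the range was -0.19 to 0.068 (XX +KTS KO vs XX WT), -0.11 to 0.14 (XX -KTS KO vs XX WT), -0.49 to 0.35 (XY +KTS KO vs XY WT), -0.53 to 0.55 (sex difference of the +KTS KO effect).

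The fit with a replicate block changed 1 call of the members, that of Cbfb in XY +KTS KO against XY WT in the supporting lineage (log2 -0.94), and no other. The numbers did not pair the libraries in every pair of groups. With sets of 1 replicate number left, a lone library is assumed to vary like the other groups.

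Counts of all genes called over gonadal somatic cells moved by more than 1.5 times in some settings. For XX +KTS KO against XX WT 883 genes became 1504 (DESeq2), 1370 (no low-count filter), 1495 (only the groups compared) and 447 (all kept cells). With all kept cells 2878 became 1463 (XX -KTS KO against XX WT), 4150 became 2409 (XY -KTS KO against XY WT) and 2239 became 1147 (XX WT against XY WT). With only the groups compared 2195 became 343 (XY +KTS KO against XY WT) and 3831 became 2260 (XY -KTS KO against XY +KTS KO). For the sex differences 543 (-KTS KO) and 676 (+KTS KO) became 1313 and 1510 with DESeq2, 988 and 1224 with no low-count filter, 831 and 248 with only the groups compared and 149 and 251 with all kept cells.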
